A study of Homo sapiens
Mus musculus with 16 samples.

Results

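The genes described here are 46 genes of skeletal muscle, read in the mouse host tissue of human tumours grown in mice. They were taken by symbol from a list of sarcomere, calcium handling, energy metabolism and muscle ubiquitin ligase genes. All 46 were among the 23337 genes of the mouse table, and all 46 passed the filter on low values. The tumours were grown from ScaBER, a long-established line of squamous carcinoma cells from human bladder, in athymic nude mice (Hsd:Athymic Nude-Foxn1nu), which lack a thymus and so most T cells. One group received nintedanib at 40 mg/kg, a kinase inhibitor of the receptors for VEGF, PDGF and FGF, and a second received alpelisib (BYL719) at 25 mg/kg, which inhibits the alpha isoform of PI3K. Another group received both drugs at these doses, and the vehicle group received only the carrier, methylcellulose with Tween80. Treatment lasted 14 days in each group, and each group has 4 libraries, made from frozen tissue by reading the 3′ ends of polyadenylated RNA. The labels give neither the site where the tumours grew nor the number of mice behind the libraries, so the spread between libraries of a group may be partly technical.

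Skeletal muscle fibres contract when myosin heads of the thick filament pull on actin of the thin filament, inside sarcomeres that the giant protein titin spans from the Z-disc inwards. Calcium released from the sarcoplasmic reticulum switches the thin filament on through troponin, and a calcium pump returns it. Fast and slow fibres use different versions of myosin, troponin and other parts. Fibres also hold large stores of creatine kinase and glycogen-breaking enzymes to rebuild ATP. Most of these genes are little used outside striated muscle and serve as markers of muscle fibres in mixed tissue.

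Values are the authors' normalized expression values, from which whole reads could be recovered. The mouse table held between 3606008 and 6850491 reads per library, and the human table between 8303617 and 18568119. Levels are compared below mainly for 1 gene across libraries. Different genes are set side by side mostly as shares or sums within a library. No transcript lengths or 3′ ends were at hand, so a share of reads may differ from a share of RNA molecules. Reads carry no molecular identifiers, so intervals cover counting error only. In bulk tissue, fewer muscle cells and less RNA per muscle cell cannot be told apart.

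Muscle RNA was spread very unevenly over the 16 libraries, and 2 libraries held most of it. The 46 genes took 0.0669%, 0.0521%, 0.0560% and 5.61% of mouse reads in nintedanib libraries 1 to 4. In alpelisib libraries 1 to 4 the shares were 0.157%, 0.500%, 0.00911% and 0.0106%. Combination libraries 1 to 4 gave 3.65%, 0.00791%, 0.246% and 0.0349%, and vehicle libraries 1 to 4 gave 0.222%, 0.901%, 0.0168% and 0.0125%. The 4 groups overlapped, and each of the alpelisib, combination and vehicle groups held libraries with and without much muscle RNA. The 95% Clopper-Pearson interval ran from 5.59% to 5.63% in nintedanib 4 and from 3.64% to 3.67% in combination 1. Read numbers on the 46 genes were 239793 in nintedanib 4 and 224750 in combination 1, against 451 in vehicle 4, the library with the fewest. Among the 46 genes, 42 had nintedanib 4 and combination 1 as their highest 2 libraries, and the exceptions were Myh1, Myl3, Sln and Xirp2. The highest library was nintedanib 4 for 36 genes, combination 1 for 9 and vehicle 2 for 1, Myh1. Vehicle 2 came next highest for 31 genes. In the 5 libraries poorest in muscle RNA much of the sum was 1 gene, Fbxo32, with 35.3% and 34.1% of the reads on the 46 genes in alpelisib 3 and 4, 34.5% in combination 2, and 34.3% and 48.6% in vehicle 3 and 4. Fbxo32 made up 0.171% of them in nintedanib 4 and 0.219% in combination 1.

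**Figure D1:**
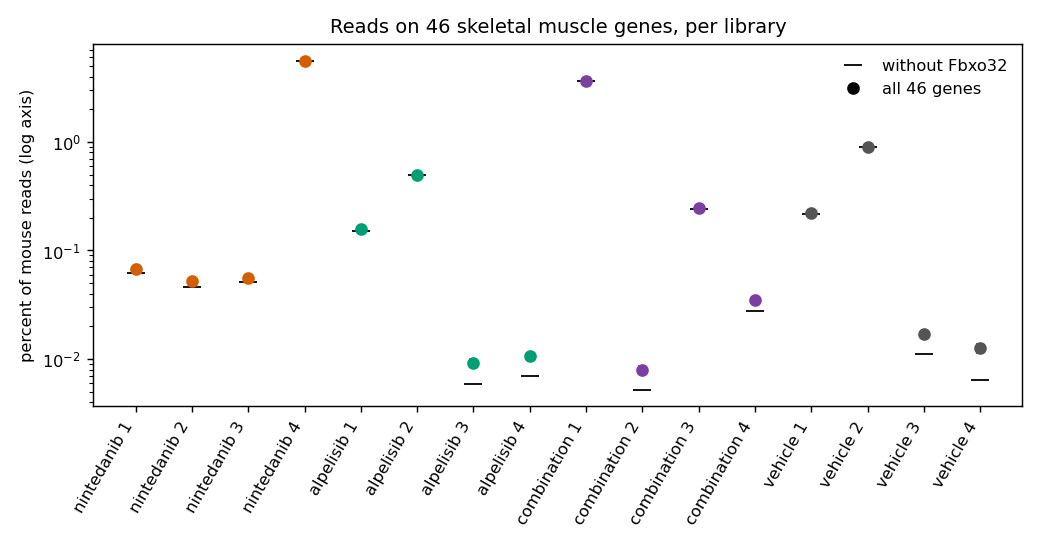
Percent of mouse reads on the 46 skeletal muscle genes in each library (log axis), with error bars for the 95% Clopper-Pearson interval, mostly smaller than the points, and black dashes for the share without Fbxo32. Nintedanib 4 at 5.61% and combination 1 at 3.65% stand above the other 14 libraries, of which vehicle 2 is highest at 0.901%.

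The genes that define heart muscle were low in all libraries apart from Tnnt2, but not all were near 0. Of the 8 heart genes, Myh6, the main myosin of the mouse ventricle, reached at most 2.77 in any library, and Nppa, an atrial hormone, reached at most 2.41. Myl7, the atrial light chain, was at 0 in 12 libraries. Nppb reached 14.4 in nintedanib 4, Ryr2 15.2 in combination 4, Tnni3 18.3 in combination 2 and Mybpc3 18.35 in combination 3. Tnnt2, the heart troponin T that immature skeletal muscle also makes, was highest in combination 1 at 167 and in nintedanib 4 at 60.8. Summed over the heart list, values ran from 11.7 to 85.2 in nintedanib libraries, from 29.1 to 46.3 in alpelisib libraries, from 40.1 to 183 in combination libraries and from 20.5 to 58.5 in vehicle libraries. Smooth muscle genes such as Acta2 and Myh11 did not follow the skeletal genes. Their 7 values summed to 5617 in nintedanib 4, against 8982 to 11954 in the other nintedanib libraries, and to 9221 in combination 1, against 7078 to 9376 in the other combination libraries.

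Most thick filament genes had nintedanib 4 and combination 1 as their highest 2 libraries, with Myh1 and Myl3 as the exceptions named above. Mylpf, the fast regulatory light chain of myosin, had values of 197, 179, 268 and 28334 in nintedanib libraries and 760, 1860, 13.0 and 9.40 in alpelisib libraries. It had 16626, 16.3, 972 and 84.1 in combination libraries and 983, 3768, 30.2 and 21.8 in vehicle libraries. Nintedanib 4 was thus far above the other 3 nintedanib libraries, which lay inside the vehicle range. Myl1, the fast essential light chain, stood at 214, 179, 145 and 16100 in nintedanib, at 563, 1475, 12.1 and 40.7 in alpelisib, at 15762, 8.49, 820 and 34.5 in combination and at 918, 3476, 25.3 and 13.6 in vehicle libraries. Its order of libraries was close to that of Mylpf. Of the 11 thick filament genes, the slow light chains Myl2 and Myl3 and the slow heavy chain Myh7 were at 0 in 10, 8 and 7 libraries, in that order. Mybpc2, a fast myosin binding protein, had 3314 in nintedanib 4 and 2352 in combination 1.

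Thin filament genes moved with them. Acta1, the skeletal actin, had 898, 437, 585 and 67089 in nintedanib libraries and 1955, 6983, 31.2 and 35.2 in alpelisib libraries. It had 41348, 19.6, 2489 and 238 in combination libraries and 2487, 12069, 65.2 and 38.2 in vehicle libraries. Means were 17252 ± 33225 in nintedanib, 2251 ± 3282 in alpelisib, 11023 ± 20247 in combination and 3665 ± 5719 in vehicle libraries (SD, n = 4 each). In every group the SD exceeded the mean. Tnnt3, the fast troponin T that anchors troponin on the filament, had 175, 167, 147 and 20874 in nintedanib, 380, 1494, 11.3 and 6.27 in alpelisib, 10296, 7.18, 721 and 83.1 in combination and 799, 2202, 29.0 and 8.19 in vehicle libraries. Tnnc2, the fast calcium-binding troponin C, had 164, 34.1, 117 and 16155 in nintedanib, 229, 1355, 4.33 and 3.92 in alpelisib, 11130, 5.22, 701 and 24.3 in combination and 404, 1913, 21.7 and 4.09 in vehicle libraries. For these 3 genes the ranges of all 4 groups overlapped. Acta1 reads may be shared with its close relatives Actc1 and Acta2, and how the authors assigned such reads is not given in the sources used here.

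Among the 10 genes of the Z-disc and titin, Ttn, which encodes titin, had 410, 304, 366 and 8149 in nintedanib, 484, 1118, 56.3 and 29.8 in alpelisib, 4659, 28.1, 367 and 213 in combination and 659, 3292, 90.5 and 43.7 in vehicle libraries. Tcap, which caps titin at the Z-disc, had 56.9, 2.77, 28.1 and 3108 in nintedanib, 87.8, 478, 0 and 0.783 in alpelisib, 2624, 1.31, 299 and 12.2 in combination and 56.2, 494, 3.62 and 0 in vehicle libraries. Actn3, the fast-fibre alpha-actinin that cross-links actin, had 23.3, 32.3, 18.8 and 3776 in nintedanib, 39.7, 209, 5.20 and 7.83 in alpelisib, 1794, 5.88, 74.5 and 45.6 in combination and 166, 183, 9.66 and 9.55 in vehicle libraries. Ttn spread less than Actn3, with a highest value 290 times its lowest, against 726 for Actn3. It held 3.08% of the reads on the genes other than Fbxo32 in nintedanib 4 and 2.81% in combination 1, against 12.1% in combination 2, 18.4% in alpelisib 3 and 16.9% in vehicle 3.

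Calcium handling genes included the member with the widest spread among those detected in every library. Pvalb, the soluble calcium buffer of fast fibres, had 28.0, 44.3, 51.6 and 13105 in nintedanib, 42.5, 743, 4.33 and 1.57 in alpelisib, 5826, 1.96, 628 and 16.2 in combination and 302, 353, 16.9 and 2.73 in vehicle libraries. Its highest value was 8365 times its lowest. Atp2a1, the fast-fibre calcium pump, had 51.3, 39.7, 79.7 and 9540 in nintedanib, 102, 645, 7.80 and 11.0 in alpelisib, 5207, 3.92, 515 and 56.8 in combination and 314, 755, 15.7 and 9.55 in vehicle libraries. Trdn, which ties the release channel to the calcium store, had 113, 36, 39.8 and 1828 in nintedanib, 84.1, 174, 15.6 and 5.48 in alpelisib, 2019, 5.22, 70.0 and 27.4 in combination and 102, 500, 19.3 and 2.73 in vehicle libraries. Trdn was higher in combination 1 than in nintedanib 4, unlike the other two. The release channel Ryr1 and its voltage sensor Cacna1s were also highest in nintedanib 4, at 849 and 363.

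Energy genes followed the same libraries. Ckm, muscle creatine kinase, had 46.6, 63.7, 68.0 and 13553 in nintedanib, 187, 1007, 8.67 and 11.0 in alpelisib, 5945, 1.96, 482 and 55.8 in combination and 294, 826, 20.5 and 6.82 in vehicle libraries. Pygm, muscle glycogen phosphorylase, had 17.7, 53.5, 79.7 and 5799 in nintedanib, 89.7, 453, 4.33 and 7.05 in alpelisib, 3064, 3.92, 212 and 15.2 in combination and 237, 505, 13.3 and 20.5 in vehicle libraries. Eno3, the muscle enolase of glycolysis, had 63.4, 29.5, 56.3 and 4949 in nintedanib, 95.4, 258, 27.7 and 28.2 in alpelisib, 4031, 25.5, 248 and 18.2 in combination and 149, 433, 21.7 and 23.2 in vehicle libraries. In alpelisib 3, combination 2 and vehicle 4, where Ckm was below 10, Eno3 still stood at 27.7, 25.5 and 23.2. Mb, the oxygen-binding myoglobin, was about as high in combination 1, at 1778, as in nintedanib 4, at 1756.

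The 2 ubiquitin ligases, which tag muscle proteins for breakdown in atrophy, differed from each other. Trim63 had 14.0, 1.85, 1.17 and 495 in nintedanib, 17.9, 91.5, 0 and 1.57 in alpelisib, 305, 3.26, 14.9 and 6.08 in combination and 27.7, 108, 2.41 and 0 in vehicle libraries. Fbxo32 had 240, 263, 257 and 453 in nintedanib, 240, 247, 167 and 153 in alpelisib, 363, 122, 185 and 347 in combination and 166, 286, 280 and 299 in vehicle libraries. Trim63 was high and low in the same libraries as the sarcomere genes, while the highest Fbxo32 value was only 3.71 times the lowest. Fbxo32 was present at 280 and 299 in vehicle 3 and 4, where Acta1 was at 65.2 and 38.2. FBXO32 in the human table stood at 1116 and 1068 in these 2 libraries. Whether reads of human origin were counted on mouse Fbxo32 was not tested.

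**Figure D2:**
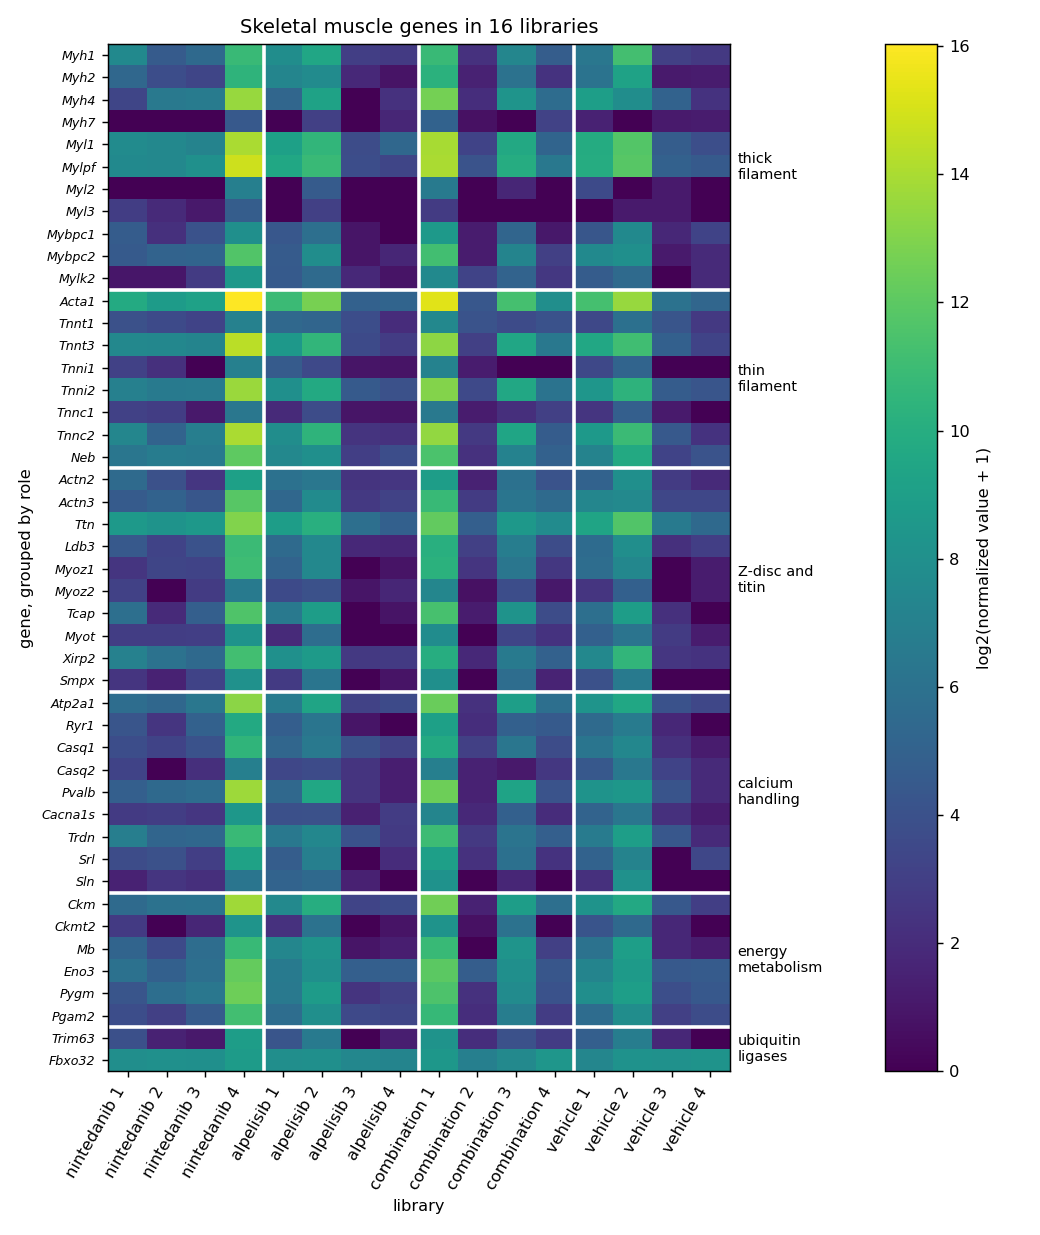
Log2(normalized value + 1) of the 46 genes (rows, grouped by role) in the 16 libraries (columns, white lines between groups). Nintedanib 4 and combination 1 are bright in nearly every row, vehicle 2 and alpelisib 2 come next, and Fbxo32 in the last row stays within 122 to 453 everywhere.

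The myosin heavy chains show which kind of fibre the RNA came from, and libraries of 1 group differed in this. Mouse fast fibres use Myh4 (type 2B), Myh1 (type 2X) or Myh2 (type 2A), and slow fibres use Myh7. Myh4 had 9.33, 89.5, 101 and 12104 in nintedanib, 37.8, 606, 0 and 3.92 in alpelisib, 6532, 3.26, 311 and 50.7 in combination and 502, 226, 32.6 and 4.09 in vehicle libraries. Myh1 had 196, 23.1, 44.5 and 1870 in nintedanib, 236, 704, 6.93 and 5.48 in alpelisib, 1877, 3.92, 165 and 25.3 in combination and 79.3, 2407, 7.24 and 5.46 in vehicle libraries. Vehicle 2 thus had the most Myh1 of all libraries but less Myh4 than vehicle 1. Myh2 had 39.2, 12.9, 9.38 and 1349 in nintedanib, 160, 213, 2.60 and 0.783 in alpelisib, 1200, 1.96, 65.4 and 4.05 in combination and 67.3, 603, 1.21 and 1.36 in vehicle libraries. Myh7 had 0, 0, 0 and 21.0 in nintedanib, 0, 7.28, 0 and 2.35 in alpelisib, 32.5, 0.653, 0 and 8.11 in combination and 1.84, 0, 1.21 and 1.36 in vehicle libraries. These genes are close relatives in sequence, so reads could be split between them in counting, and the counting rule is not given in the sources used here.

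Shares were read in the 10 libraries with at least 100 reads on the 4 heavy chains. Myh4 took 3.82% (1.84% to 6.91%) of 262 heavy chain reads in nintedanib 1, against 71.3% of 136 in nintedanib 2, 65.2% of 132 in nintedanib 3 and 78.9% (78.2% to 79.6%) of 13875 in nintedanib 4. In alpelisib 1 and 2 it took 8.71% of 459 and 39.6% of 1472. In combination 1 and 3 it took 67.8% of 13040 and 57.4% of 472. In vehicle 1 and 2 it took 77.2% (73.9% to 80.2%) of 705 and 6.995% (6.04% to 8.04%) of 2602. The low-Myh4 libraries were instead rich in Myh1, at 80.2% in nintedanib 1, 54.5% in alpelisib 1 and 74.4% in vehicle 2. Each of these 3 groups therefore held a Myh1-rich library beside a Myh4-rich or mixed one. Among these 10 libraries, the Myh4 interval of the Myh1-rich library overlapped none of the others in its group. In the alpelisib and vehicle groups the only other such library was alpelisib 2 and vehicle 1. Among the libraries with fewer reads, the wide intervals of alpelisib 3 (0% to 28.5%), alpelisib 4 (11.0% to 58.7%) and vehicle 4 (7.49% to 70.1%) overlapped that of the Myh1-rich library of their group. The interval of vehicle 3 (59.9% to 89.6%) did not. Myh7 took at most 0.476% in any of the 10 libraries.

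**Figure D3:**
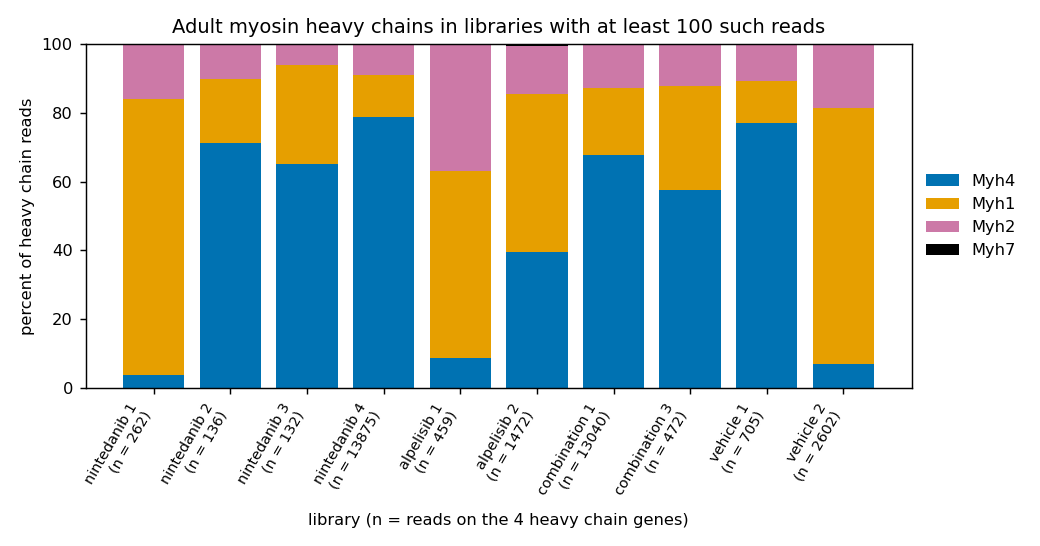
Percent of heavy chain reads on Myh4, Myh1, Myh2 and Myh7 in the 10 libraries with at least 100 such reads (read numbers under each bar). Nintedanib 1, alpelisib 1 and vehicle 2 are mostly Myh1, while nintedanib 4, combination 1 and vehicle 1 are mostly Myh4.

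Pvalb and Xirp2, chosen after their values were seen, also differed between these libraries. Of the reads on the genes other than Fbxo32, Pvalb took 0.839% in nintedanib 1, 0.616% in alpelisib 1 and 0.864% in vehicle 2, the Myh1-rich libraries. It took 4.95% in nintedanib 4, 3.18% in alpelisib 2, 3.51% and 5.50% in combination 1 and 3, and 3.02% in vehicle 1. Xirp2, an actin-binding protein of the sarcomere edge, went the other way. Its share was 3.89% in nintedanib 1, 3.77% in alpelisib 1 and 3.75% in vehicle 2, against 0.874% in nintedanib 4, 0.607% in combination 1 and 1.78% in vehicle 1. Nintedanib 2, where Myh4 was the main heavy chain, lay between them for both genes, with 2.06% for Pvalb and 2.96% for Xirp2. Not every gene divided the libraries in this way. Mylpf, for example, took 11.0% in Myh1-rich alpelisib 1 and 10.7% in Myh4-rich nintedanib 4, and Ckm took 2.71% in alpelisib 1 and 2.51% in Myh4-rich nintedanib 3.

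Slow-fibre genes took a small part of the reads on slow and fast genes wherever muscle RNA was plentiful. The 8 slow genes took 0.505% (0.467% to 0.545%) of the reads on the 8 slow and 14 fast genes in nintedanib 4 and 0.908% (0.855% to 0.963%) in combination 1. Vehicle 1 and 2 gave 1.19% and 1.31%, and alpelisib 2 gave 1.14%. The share was 3.98% in nintedanib 1 and 2.98% in alpelisib 1. It was higher where reads were few, at 15.97% (10.4% to 23.0%) in alpelisib 3, 21.4% (15.3% to 28.6%) in combination 2 and 12.6% (8.37% to 17.9%) in vehicle 3, from 23, 34 and 26 slow reads. Tnnt1, the slow troponin T, made up 13.0 of a summed slow value of 19.9 in alpelisib 3, 16.3 of 22.2 in combination 2 and 18.1 of 31.4 in vehicle 3. TNNT1 in the human table stood at 3066, 2695 and 2615 in these 3 libraries. Whether reads of human origin were counted on mouse Tnnt1 was not tested.

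The 2 muscle-rich libraries were not copies of each other. The ratio of nintedanib 4 to combination 1 had a median of 1.37 over the 46 genes and lay above 1 for 36 of them. For the 14 fast genes the median ratio was 1.71, with 13 above 1. For the 8 slow genes it was 0.916, with 3 above 1. The lowest ratio was that of Sln, a small inhibitor of the calcium pump, at 0.266, and the highest was that of Myl3, at 4.30, from 23 and 8 reads.

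With these spreads, no muscle gene passed the test in any comparison, although most lay on 1 side of 0. Differences are given as log2 differences of group means on the log2(value + 1) scale, which understates changes of low genes, and were tested with limma over 17484 genes. Nintedanib minus vehicle was above 0 for 45 of the 46 genes, with a median of 1.23, against 0.02 over all genes tested. None of the 46 passed the adjusted threshold of 0.05, as did 0% of all genes. One had an unadjusted p under 0.05, against 6.01% of all genes. Without nintedanib 4 and combination 1 the difference was above 0 for 13 genes, with a median of -0.36. The 2 libraries were chosen as the richest in these same genes, so a fall of the median was built in, though not its sign. Leaving out nintedanib 4 alone gives the same median of -0.36 by construction, since combination 1 is not part of this difference. Leaving out vehicle 2 gave 2.23. By role, all 11 thick filament, 8 thin filament, 10 Z-disc and titin and 6 energy genes were above 0, with medians of 1.32, 1.63, 1.12 and 0.96 in that order, and so were 8 of 9 calcium genes (median 1.12) and both ligases.

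The leading gene of each role had an interval far wider than its difference. Acta1 differed by 1.91 (SE 2.24, 95% interval -2.76 to 6.58, limma adjusted p = 0.941). Mylpf differed by 1.67 (SE 2.13, limma adjusted p = 0.944), Ttn by 1.35 (SE 1.47, limma adjusted p = 0.940) and Pvalb by 1.75 (SE 2.24, limma adjusted p = 0.944). Ckm differed by 1.53 (SE 2.10, limma adjusted p = 0.945) and Fbxo32 by 0.22 (SE 0.31, 95% interval -0.43 to 0.87, limma adjusted p = 0.948). For each of these 6 genes nintedanib 4 was the only nintedanib library above the whole vehicle group. Without the 2 muscle-rich libraries Mylpf turned to -0.09, Pvalb to -0.33 and Ckm to -0.42, while Acta1 stood at 0.22, Ttn at 0.22 and Fbxo32 at 0.01. The gene with the smallest p was Myl3, a slow light chain that had 6.53, 2.77, 1.17 and 25.4 in nintedanib libraries and 0, 1.24, 1.21 and 0 in vehicle libraries. Its values rest on 7, 3, 1 and 23 reads in nintedanib libraries and 0, 1, 1 and 0 in vehicle libraries, and it differed by 2.09 (SE 0.85, limma adjusted p = 0.737). Without the 2 muscle-rich libraries Myl3 differed by 1.40.

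Alpelisib minus vehicle was below 0 for 36 of the 46 genes, with a median of -0.33, against 0.01 over all genes tested. No muscle gene passed the adjusted threshold and none had an unadjusted p under 0.05, against 0% and 3.26% of all genes. Acta1 differed by -0.57 (SE 2.24, 95% interval -5.24 to 4.10, limma adjusted p = 1), Mylpf by -0.92, Ttn by -0.80, Pvalb by -1.003, Ckm by -0.23 and Fbxo32 by -0.35, each with a limma adjusted p of 1. Single libraries turned this direction too. The median over the 46 genes was -1.45 without alpelisib 2 and 0.64 without vehicle 2, the muscle-richest library of each group. Both groups held 2 libraries with ample muscle RNA and 2 with almost none.

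Combination minus vehicle was above 0 for 40 of the 46 genes, with a median of 0.89, against 0.03 over all genes tested. No muscle gene passed the adjusted threshold, against 0.0515% of all genes, and none had an unadjusted p under 0.05, against 7.67% of all genes. Acta1 differed by 0.68 (SE 2.24, 95% interval -4.00 to 5.35, limma adjusted p = 0.974), Mylpf by 0.79 (limma adjusted p = 0.967) and Ttn by 0.07 (limma adjusted p = 0.998). Pvalb differed by 1.18 (limma adjusted p = 0.949), Ckm by 0.89 (limma adjusted p = 0.961) and Fbxo32 by -0.12 (limma adjusted p = 0.965). Without nintedanib 4 and combination 1 the difference was above 0 for 7 genes, with a median of -0.70, and each of the 6 energy genes lay below 0. Then Acta1 stood at -1.20, Mylpf at -1.01, Ttn at -1.22, Pvalb at -0.70 and Ckm at -0.89. Leaving out combination 1 alone gives the same median by construction, since nintedanib 4 is not part of this difference. The fall of the median was again built in by the choice of libraries. Leaving out vehicle 2 gave 1.93.

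Between the combination and the single drugs the muscle genes were as uncertain. Combination minus nintedanib was above 0 for 11 of the 46 genes, with a median of -0.34, against 0.01 over all genes tested. No muscle gene passed the adjusted threshold, against 0% of all genes, and 1, Myl3, had an unadjusted p under 0.05, against 5.14% of all genes. Myl3 had 5.92, 0, 0 and 0 in combination libraries and differed by -1.97 (SE 0.85, limma adjusted p = 0.939). The median was -1.98 without combination 1 and 1.23 without nintedanib 4. Combination minus alpelisib was above 0 for 43 genes, with a median of 1.19, against 0.01 over all genes tested. No muscle gene passed the adjusted threshold, against 0% of all genes, and none had an unadjusted p under 0.05, against 5.76% of all genes. Without the 2 muscle-rich libraries 15 of the 46 lay above 0 in either comparison, with medians of -0.27 and -0.18. These comparisons share libraries with those against vehicle and are not independent of them.

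Count tests on the recovered reads also called none of the 46 genes. edgeR's quasi-likelihood test called 0 of the 46 in each comparison, against 0% of all genes in nintedanib minus vehicle, 0% in alpelisib minus vehicle, 0.04% in combination minus vehicle, 0% in combination minus nintedanib and 0% in combination minus alpelisib. DESeq2 gave no adjusted p for 31 of the 46 in each comparison, as it does for genes with an extreme library or low counts, and called none of the rest. The number was 31 also in alpelisib minus vehicle, where 17298 of 17484 genes had an adjusted p. It called 0.201%, 0.00578%, 0.539%, 0% and 0.178% of the genes with an adjusted p, in the same order of comparisons. At an unadjusted p under 0.05, edgeR had 1 muscle gene in nintedanib minus vehicle, against 6.06% of all genes, and 0 in the other comparisons, against 3.44%, 7.6%, 4.92% and 6.38% of all genes in the same order. DESeq2 likewise had 1 in nintedanib minus vehicle, against 5.54% of all genes, and 0 in the others, against 2.64%, 7.4%, 4.58% and 5.82%. In DESeq2 a gene with an extreme library also loses its unadjusted p. These DESeq2 counts may thus cover far fewer than 46 muscle genes and cannot be set directly against the shares of all genes. The edgeR medians over the 46 genes were 2.17 for nintedanib minus vehicle, -0.56 for alpelisib minus vehicle, 1.86 for combination minus vehicle, -0.41 for combination minus nintedanib and 2.43 for combination minus alpelisib. Each lay farther from 0 than the limma median with the same sign, and those of DESeq2 were 2.23, -0.53, 1.88, -0.42 and 2.40.

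**Figure D4:**
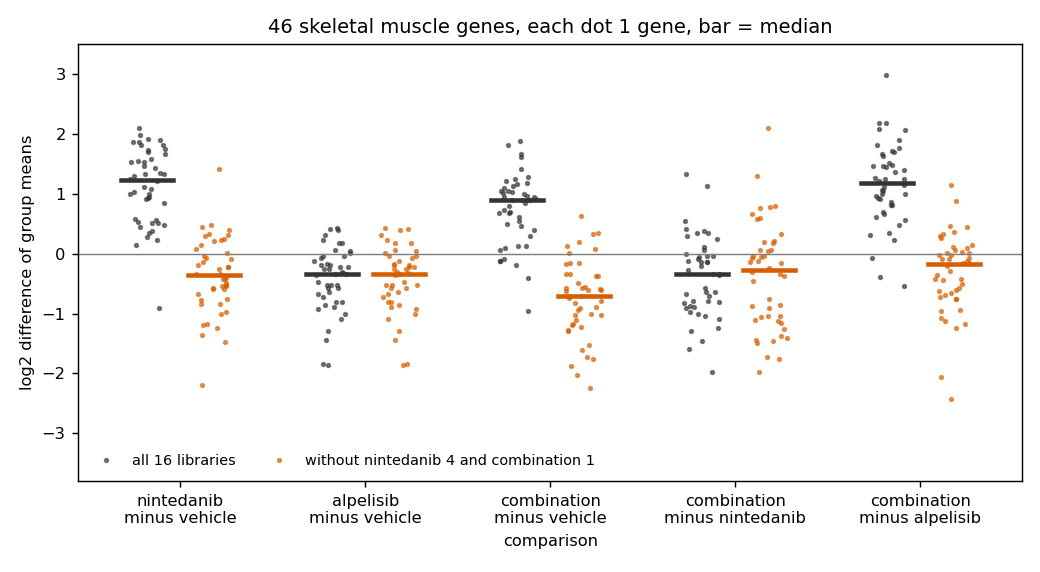
Log2 differences of group means for the 46 genes (dots) with their medians (bars) in 5 comparisons, with all 16 libraries (dark) and without nintedanib 4 and combination 1 (orange). The median of nintedanib minus vehicle is 1.23 with all libraries and -0.36 without the 2, and that of combination minus vehicle is 0.89 and -0.70.

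Further muscle genes outside the 46 behaved alike. Of 60 listed, 58 were in the table and tested, among them tropomyosins, M-band proteins, the dystrophin complex and muscle mitochondrial subunits. None passed the limma threshold in any comparison. Nintedanib minus vehicle was above 0 for 49 of the 58, with a median of 0.58, combination minus vehicle for 42, with a median of 0.52, and alpelisib minus vehicle for 22, with a median of -0.21. Without the 2 muscle-rich libraries the first 2 counts were 14 each, with medians of -0.35 and -0.51. Des, the intermediate filament that links sarcomeres, had 4884 in nintedanib 4 and 6982 in combination 1, against 1228 in vehicle 2. Tpm3, a tropomyosin that many other cells make, had 4085 and 2462 in the 2 muscle-rich libraries, within its range in the rest.

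A ranking of all other tested genes by their correlation over the 16 libraries with the mean log2 level of the 46 genes gave 63 of 17438 genes with an r above 0.9 and 148 above 0.8. Of these, 29 and 41 were on the list of 58 further muscle genes. The 12 most alike, 7 of them on that list, were Nrap, Sypl2, Hrc, Hspb6, Myom2, Ppp1r27, Klhl31, Trim54, Hfe2, Art1, Lmod3 and Tmod4, with r of 0.987 for Nrap, a myofibril assembly protein, and 0.962 for Tmod4, which caps thin filaments. Nrap had 1231 in nintedanib 4 and 671 in combination 1, against 207 in vehicle 2. Hfe2, which encodes hemojuvelin, a regulator of iron that muscle makes, had 650 in nintedanib 4 and 455 in combination 1, against at most 82.1 elsewhere. Within the 46, 37 had an r above 0.9 with the mean of the others. The least alike were Myh7 at 0.553, Fbxo32 at 0.566, Myl3 at 0.686 and Casq2, the slow and cardiac calcium store protein, at 0.802. All these correlations share the same 16 libraries.

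Most genes of immature or repairing fibres and of the nerve contact also had their highest value in 1 of the 2 muscle-rich libraries. This held for 8 of 8 measured genes of the immature and satellite cell list and for 7 of 8 genes of the nerve contact. The exception was Colq, the collagen tail of acetylcholinesterase, with 34.8 in vehicle 2, and Musk, a kinase of the nerve contact, was at 7.74 in nintedanib 4 but at 0 in combination 1. Myog, which drives myoblasts to fuse and differentiate, had 10.3, 0, 0 and 86.3 in nintedanib, 25.5, 15.6, 0 and 0.783 in alpelisib, 124, 0, 5.73 and 4.05 in combination and 0.922, 33.6, 1.21 and 0 in vehicle libraries. Myh3, the embryonic heavy chain, had 59.7 in nintedanib 4 and 64.3 in combination 1, against 16.2 in vehicle 2, and the neonatal Myh8 had 65.3, 85.8 and 33.6 in these 3 libraries. Chrna1, the muscle acetylcholine receptor subunit, had 84.1 in nintedanib 4 and 231 in combination 1, against 37.3 in vehicle 2. Combination 1 was above nintedanib 4 for 7 of the 8 genes of the immature and satellite cell list, all but Myf6 (44.2 in nintedanib 4 and 42.2 in combination 1), and for 5 of the 8 genes of the nerve contact. The adult receptor subunit Chrne went the other way, with 22.1 in nintedanib 4 and 6.66 in combination 1, as did Musk and Dok7. Some of these values rest on few reads, as 1 read stood for 1.11 in nintedanib 4 and 0.74 in combination 1. In that order Myf5 had 2.21 and 2.96, Pax7 4.42 and 7.40, and Dok7 5.53 and 2.96. Megf10 had 2.21 and 10.35, against 8.45 in muscle-poor vehicle 3. Summed over the 8 measured genes of the immature and satellite cell list, values ran from 9.23 to 289 in nintedanib, from 11.0 to 84.1 in alpelisib, from 3.26 to 376 in combination and from 6.82 to 112 in vehicle libraries. None of these lists had a gene past the limma threshold in any comparison.

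Other neighbouring tissues were read in the same libraries. Tnmd, a tendon protein, had 38.7 in nintedanib 4 and 31.8 and 25.2 in combination 1 and 3, and was at most 11.4 elsewhere. Of the 5 tendon genes, 4 had their highest value in nintedanib 4 or combination 1, all but Mkx. Scx, for example, had 120.5 in nintedanib 4 and 93.2 in combination 1, against 61.0 in vehicle 2. The 5 tendon genes summed to 571 in nintedanib 4, 825 in combination 1 and 216 in combination 3, against 682 in alpelisib 4. These sums are mostly Fmod, which had 385, 678, 165 and 614 in these libraries. The 10 adipocyte genes did not rank libraries as the muscle genes did. They summed to 493 to 2483 in nintedanib, 614 to 15430 in alpelisib, 539 to 4879 in combination and 355 to 23159 in vehicle libraries. The highest was vehicle 1, and alpelisib 4, which had almost no muscle RNA, came second. In nintedanib 4 the sum of 2483 was mostly Car3, at 1525, while Adipoq was at 50.9. Car3 was the only 1 of the 10 genes with its highest value in nintedanib 4 or combination 1. The 5 endothelial genes summed to 2331 in nintedanib 4, against 987 to 1435 in the other nintedanib libraries, to 1597 in combination 1, against 1153 to 1580 in the other combination libraries. They summed to 1719 to 2279 in alpelisib libraries and to 1777 to 2582 in vehicle libraries. The muscle-richest library was thus the highest in endothelial genes in the nintedanib group and, by a small margin, in the combination group. It was the lowest in the alpelisib group (alpelisib 2) and in the vehicle group (vehicle 2). The part of host muscle in these sums was not tested.

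The human table carried some of the same pattern. All 46 human symbols were listed there, and for 30 of them nintedanib 4 or combination 1 was the highest library. The same count over all human genes was not made. Only 23 of the 46 had at least 10 reads in nintedanib 4. That library had the fewest human reads, 8303617, and 1 read there stood for a value of 1.68, so a few reads can place it highest. MYH4, the human symbol of the fast 2B heavy chain, had 2.61, 5.57, 8.59 and 1303 in nintedanib, 0.759, 58.5, 0 and 0 in alpelisib, 869, 0.796, 25.5 and 12.1 in combination and 42.9, 43.6, 0 and 1.13 in vehicle libraries. Reads on MYH1, MYH2 and MYH4 together numbered 913 in nintedanib 4 and 914 in combination 1, which is 6.59% and 7.03% of the reads on the mouse genes in those libraries. The share was 4.64% in alpelisib 2 and 2.96% in vehicle 2. TTN had 525 reads in nintedanib 4, or 7.12% of those on mouse Ttn, while ACTA1 had 35, or 0.0577%, and CKM had 0. Whether the same reads were counted in both tables was not tested. TNNT1, MB and FBXO32 were different, with at least 888, 105 and 467 in every library, and none was highest in nintedanib 4 or combination 1.

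**Figure D5:**
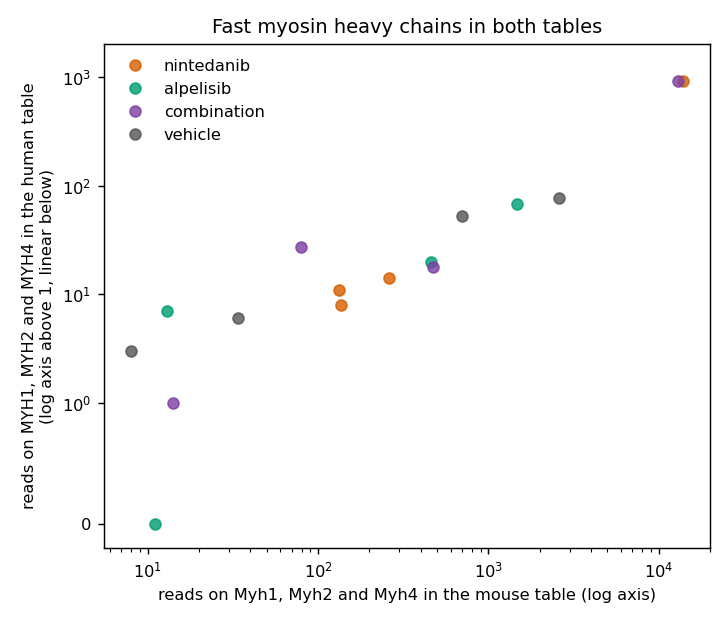
Reads on the fast heavy chains MYH1, MYH2 and MYH4 in the human table (vertical, log above 1 and linear below) against reads on Myh1, Myh2 and Myh4 in the mouse table (horizontal, log) in the 16 libraries. Nintedanib 4 and combination 1 lie together at the top right, with 913 and 914 human-table reads.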

How the data were processed

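RNA from 16 xenograft libraries, 4 in each of 4 groups, was sequenced from the 3′ end and mapped separately to human and mouse. Per the submitters' processing notes, reads were aligned with TopHat to hg19 and mm10. For the counter, the annotation and the scaling, the method is not given in the sources used here. The deposited tables hold a normalized signal per gene and library, with its scaling unstated. In every library 100% of the values were whole multiples of 1 step, within 0.01 read, as whole reads divided by 1 factor would be, so reads were recovered. Mouse depth was 3606008 to 6850491 reads per library.

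The 46 genes, their roles and the other lists were chosen with earlier results of these data known. The 17484 genes that reached a value of 1 in 4 or more libraries were fitted as log2(value + 1) with 1 mean per group over all 16 libraries in limma 3.58.1 (eBayes with trend, R 4.3.3), with Benjamini-Hochberg adjustment over all of them and a threshold of 0.05. The steps were tested on simulated data. Genes named with all values are the 3 with the highest mean in each role (2 ligases) and the 4 heavy chains. Fold changes are given for the highest-mean gene of each role, and the 4 least alike members and 12 most alike other genes are named. Genes named beyond that were chosen after their values were seen. Shares have 95% Clopper-Pearson intervals. Alternatives included edgeR 4.0.16 and DESeq2 1.42.0 on recovered reads, other scalings, filters and pseudocounts, a replicate block, leaving out each library, and leaving out nintedanib 4 and combination 1. No genome, sequences or coordinates of mouse genes were used.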

Additional observations from a re-analysis of the deposited data

Results flagged for a closer look

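Within the nintedanib group, library 4 lay farther from the other 3 than Dixon's 95% critical value for 4 samples allows, on the log2 scale, for 22 of the 46 genes and for the share of mouse reads on all 46, 5.61%. The thick filament genes were Myh7 at 21.0, Myl1 at 16100, Mylpf at 28334, Myl2 at 122.8 and Mybpc2 at 3314. For Myh7 and Myl2 the other nintedanib libraries were at 0, where the rule marks any value above 0. The thin filament genes were Acta1 at 67089, Tnnt3 at 20874, Tnni2 at 12365 and Neb at 4254. At the Z-disc and titin they were Actn3 at 3776, Ttn at 8149, Ldb3 at 1966, Myoz1 at 2136 and Myot at 296.4. Among calcium genes they were Atp2a1 at 9540, Casq1 at 1453, Pvalb at 13105, Cacna1s at 362.7 and Srl at 604.9. The rest were Ckm at 13553, Eno3 at 4949 and Fbxo32 at 453.4. These genes move together, so they are not separate observations.

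The same rule marked 6 other values. Slow-fibre genes were marked in combination 1, with Tnnt1 at 176.7, Tnni1 at 136.1 and Myl3 at 5.92, and in alpelisib 2, with Myl2 at 22.9 and Myl3 at 7.28. For Myl3 in combination 1 and both genes in alpelisib 2 the rest of the group was at 0, so the mark was fixed in advance. These values rest on 8 reads in combination 1, and on 22 (Myl2) and 7 (Myl3) reads in alpelisib 2. Fbxo32 was low in vehicle 1, at 166.0. The rule was applied to 184 pairs of gene and group. Chance alone marks about 1 in 20 where values are not tied at 0.

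In the human table, which the comparisons do not use, muscle symbols stood above every vehicle library in the 2 muscle-rich libraries. The summed value of MYH1, MYH2 and MYH4 was 1536 in nintedanib 4 and 957.1 in combination 1. TTN was at 883.5 and 305.8, and NEB, the human symbol of nebulin, at 440.9 and 164.4 in the same 2 libraries. Whether these reads also count in the mouse table was not tested.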

How the results depend on the processing

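No alternative and no left-out library put any of the 46 genes past the threshold in any of the 5 comparisons. DESeq2 could not call 31 of them, which had no adjusted p, and the filter at a value of 10 kept 44 for testing. Without nintedanib 4 and combination 1, nintedanib minus vehicle turned to -0.0934 for Mylpf, -0.334 for Pvalb and -0.424 for Ckm, and combination minus vehicle turned to -1.01 for Mylpf, -1.20 for Acta1, -1.22 for Ttn, -0.703 for Pvalb and -0.888 for Ckm. Alpelisib minus vehicle turned positive for Pvalb (0.204 in edgeR, 0.231 in DESeq2) and Ckm (0.0573 in edgeR, 0.0800 in DESeq2), and the cause was not tested. With libraries scaled to the human plus mouse total, combination minus vehicle was 0.204 for Fbxo32. This scaling moved the median of all genes to 0.14 in nintedanib minus vehicle, 0.23 in alpelisib minus vehicle, 0.32 in combination minus vehicle, 0.18 in combination minus nintedanib and 0.09 in combination minus alpelisib, and the medians of the 46 genes to 1.28, -0.15, 1.16, -0.16 and 1.28 in the same order.

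Leaving out 1 library at a time, the median of the 46 genes ran from -0.362 to 2.23 in nintedanib minus vehicle, from -1.45 to 0.641 in alpelisib minus vehicle, from -0.701 to 1.93 in combination minus vehicle, from -1.98 to 1.23 in combination minus nintedanib and from -0.177 to 2.24 in combination minus alpelisib. In nintedanib minus vehicle, Mylpf ran from -0.0934 to 3.02, Acta1 from 0.216 to 3.41, Ttn from 0.222 to 2.49, Pvalb from -0.334 to 2.67 and Ckm from -0.424 to 2.66. In alpelisib minus vehicle, Mylpf ran from -2.24 to 0.432, Acta1 from -2 to 0.932, Ttn from -1.73 to 0.337, Pvalb from -2.62 to 0.107 and Ckm from -1.52 to 0.896. In combination minus vehicle, Mylpf ran from -1.01 to 2.30, Acta1 from -1.20 to 2.46, Ttn from -1.22 to 1.22, Pvalb from -0.703 to 2.94, Ckm from -0.888 to 2.77 and Fbxo32 from -0.337 to 0.184. Over all genes, combination minus vehicle had 9 calls in limma, 7 in edgeR, 75 in DESeq2 and 24 without the 2 muscle-rich libraries, none among the 46.

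No pairing by replicate number was seen in the values, and the labels do not say what a shared number means. Over 24 pairs of same-numbered libraries, deviations from group means correlated between -0.287 and 0.171, with a median of -0.0137, and 1 library of 16 correlated best with its own number. With the replicate block the number of muscle genes past the threshold stayed at 0 in each comparison, the medians stayed at 1.23, -0.33, 0.89, -0.34 and 1.19, and 3 genes were called over the whole table in combination minus vehicle. In the libraries poorest in muscle RNA, with 451 to 676 reads on the 46 genes, fibre shares have very wide intervals. The slow share ran from 15.3% to 28.6% in combination 2. The Myh4 share of heavy chain reads ran from 7.49% to 70.1% in vehicle 4.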
